A study of Xenopus laevis with 4 samples.

Results

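Levels of 4 miRNAs of the early embryo (listed as xtr-miR-427, xtr-miR-428, xtr-miR-367 and xtr-miR-302) were followed in embryonic epidermis of the frog Xenopus laevis before and after ciliated cells appear. They were taken by name, as 4 of the 98 rows of the deposited miRNA table, which lists miRNAs under Xenopus tropicalis names with 1 mature sequence each. Ciliated epidermis of tailbud embryos (stage 26) was set against non ciliated epidermis of gastrulae (stage 11.5), in explants dissected from embryos of in vitro fertilised eggs, with no genotype or treatment given. Each stage had 2 small RNA libraries, a and b, labelled technical replicates from 1 pool of 50 explants, so p-values cover the spread between libraries and not between pools of embryos. Age and ciliation change together here and cannot be told apart, and in whole explants fewer cells of a type and less RNA per cell cannot be told apart either.

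miRNAs are short RNAs that guide silencing complexes to messenger RNAs, mainly by pairing of the seed, bases 2 to 8 from the 5′ end. In Xenopus laevis, miR-427 is transcribed at the onset of zygotic transcription and promotes deadenylation of maternal mRNAs, as its relative miR-430 does in zebrafish. miR-302 is its relative in mammals, where it is made with miR-367 from a shared cluster in pluripotent stem cells. In frog embryos, miR-427 is also known to act on ligands and antagonists of the Nodal pathway.

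The mature sequences of the 4 miRNAs are shown first because they place the 4 names in 3 seed groups. They are printed 5′ to 3′ as deposited, with T for U and the seed in capitals.
miR-427: gAAAGTGCtttctgttttgggcg
miR-428: tAAGTGCTctctagttcggttg
miR-302: tAAGTGCTccaatgttttagtgg
miR-367: aATTGCACtgtagcaatggtga
miR-428 and miR-302 have the same seed, AAGTGCT, and share their first 9 bases. The seed of miR-427, AAAGTGC, is the same core moved by 1 base: AAGTGC starts at base 3 in miR-427 and at base 2 in miR-428 and miR-302. The seed of miR-367, ATTGCAC, lacks that core, so miR-367 is no seed relative of the other members. Searched on the listed strand alone, the motif AAGTGC stood within bases 1 to 9 in 9 of 98 rows (9.18%), which are miR-427, miR-428 and miR-302 plus 6 relatives from the miR-17 and miR-93 group.

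The relatives are printed because their seeds decide which rows can be compared with which member. miR-17-5p, miR-20a, miR-20b and miR-106, miRNAs of the miR-17-92 cluster and its paralogs and known from proliferating cells, carry the seed of miR-427, while miR-93a carries that of miR-428 and miR-302.
miR-17-5p: cAAAGTGCttacagtgcaggtagt
miR-20a: tAAAGTGCttatagtgcaggtag
miR-20b: cAAAGTGCtcatagtgcaggtag
miR-106: aAAAGTGCttatagtgcaggtaga
miR-93a: aAAGTGCTgttcgtgcaggtag
miR-93b: aAGTGCTGttcgtgcaggtag
miR-363-3p: aATTGCACggtatccatctgt
miR-92a: tATTGCACttgtcccggcctg
The seed of miR-367 is found in miR-363-3p and miR-92a, and also in miR-92b and miR-25. Over the whole sequence, seed included, the members are distinct. The fewest single-base edits to any other row were 8 for miR-427, 6 for miR-428, 7 for miR-302 and 6 for miR-367. By contrast miR-93a and miR-93b lie 1 edit apart and cannot be counted as separate evidence. miR-20a lies 2 edits from miR-106 and 2 from miR-20b, so these rows may not be separate evidence either. How many mismatches were allowed in read assignment is not given in the sources used here.

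Values are CPM, shares of the reads assigned to the listed miRNAs scaled to 1000000, and pairs of values of a stage are given in the order a, b. Whole reads recovered from these values came to 46892 and 41878 at stage 26, and to 22668 and 30406 at stage 11.5. Rows marking epidermis and epithelium (miR-203, miR-200a, miR-200b, miR-429 and miR-205a) held 14.7% to 15.6% of reads at stage 26 and 1.70% to 1.73% at stage 11.5, with miR-205a at 1 read in all. The ciliated cell rows miR-449 and miR-34b held 45.2% to 46.3% at stage 26 and 3.81% to 4.72% at stage 11.5. Of other cell types, the neural rows held 1.13% to 1.28% at stage 26 and 0.0296% to 0.0529% at stage 11.5, and the blood and vessel rows 0.0149% to 0.0239% at stage 26 and 0.0882% to 0.125% at stage 11.5. The muscle rows held 0.143% to 0.160% at stage 26 and 0.0691% to 0.0750% at stage 11.5, and the 1 endoderm row, miR-192, was at or near 0 throughout. The neural list's miR-124 and miR-9, the muscle list's miR-133, the endoderm list's miR-122 and miR-194 and the blood list's miR-144 are not among the rows analysed. Shares of other rows rise as that of miR-427 falls, so these shares do not give changes in level. After the scaling described below, miR-449 (log2 fold change 1.22), miR-34b, miR-203, miR-429 and the neural miR-218 passed the 0.05 threshold as higher. miR-200a, miR-200b and the neural miR-7 did not pass, and the muscle miR-1b (-1.06) and vessel miR-126 passed as lower. The other muscle row, miR-206, was not tested, and it had reads at stage 26 but 0 at stage 11.5. The part of other cell types in the results below was not tested.

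Reads of different miRNAs need not rank their levels, as described for miR-302 below. By share of reads, miR-427 was common in the tailbud epidermis and the dominant miRNA of the gastrula epidermis. It held 3548 and 2912 reads at stage 26, which are 7.57% (exact 95% interval 7.33% to 7.81%) and 6.95% (6.71% to 7.20%) of reads. At stage 11.5 it held 19731 and 24832 reads in libraries a and b, which are 87.0% (86.6% to 87.5%) and 81.7% (81.2% to 82.1%). Both stage 26 libraries lie far below both stage 11.5 libraries, and at both stages the intervals of a and b do not meet, so libraries of a pool differed by more than counting error. Intervals and floors cover counting error only, since no molecular identifiers tell copies of 1 molecule apart.

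A share can fall because other miRNAs rise, so the stages were also compared after scaling by the trimmed mean of M values (TMM). TMM assumes that most rows do not change between the stages. The scaling shifted one stage against the other by 1.98 (log2). miR-427 fell on both scales: its log2 fold change was -5.52 after scaling (SE 0.1001, limma adjusted p = 7.64e-06) and -3.54 in CPM (limma adjusted p = 8.31e-07), where 6 of 52 rows fell (11.5%). It fell in all 15 alternative fits that tested it, with log2 fold changes from -6.14 to -3.54. Of 52 tested rows 11 fell after scaling (21.2%) and 20 rose (38.5%), with a median log2 fold change of 0.47. With 31 of 52 rows (59.6%) passing, the assumption of TMM is in doubt, and the sizes of all scaled changes rest on it. Without library a of stage 26, 3 of 53 tested rows fell and 8 rose, and without its library b 4 of 52 fell and 8 rose, miR-427 among those that fell each time. Of the 4 early embryonic miRNAs 2 had enough reads to be tested, miR-427, which fell, and miR-428, which did not pass. Comparisons of single ratios or shares below have 2 libraries against 2, for which an exact two-sided permutation test cannot go below p = 0.33.

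**Figure D1:**
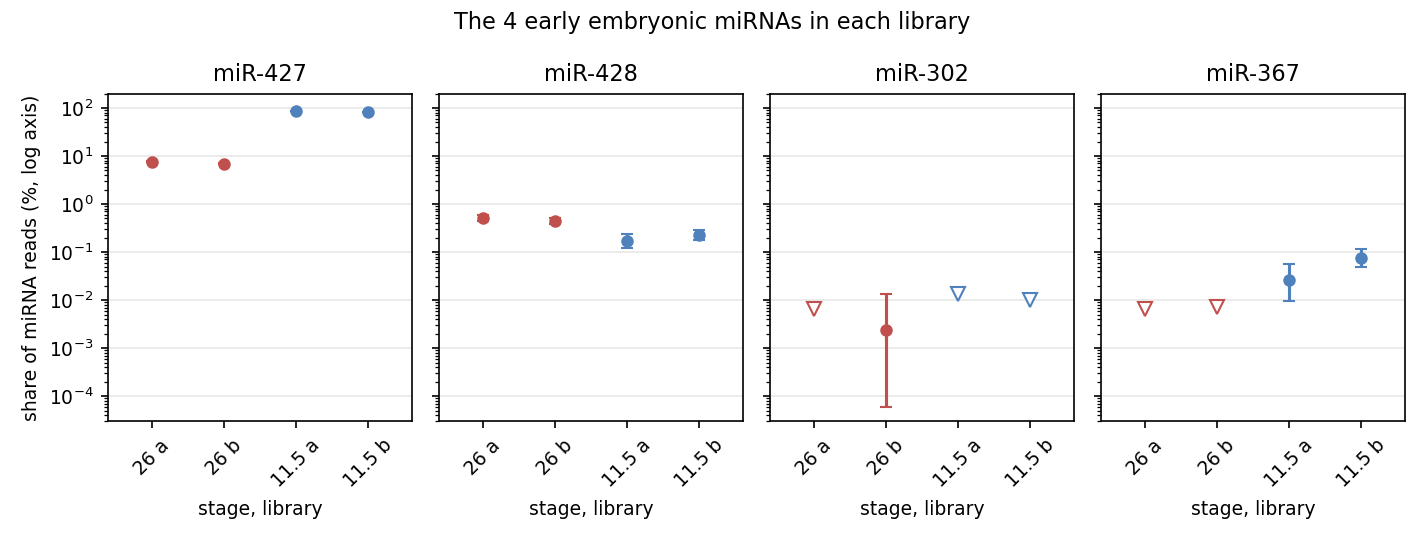
Share of miRNA reads (%, log axis) of each of the 4 miRNAs in libraries a and b of stage 26 (red) and stage 11.5 (blue). Points are libraries with exact 95% binomial intervals and open triangles are libraries at 0 reads, drawn at the floor of 3 reads. miR-427 lies near 7% at stage 26 and above it, at 87.0% and 81.7%, at stage 11.5, miR-428 is the 1 row of the 4 with larger shares in both stage 26 libraries, and miR-367 has reads at stage 11.5 only.

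By share of reads, what remained of miR-427 at stage 26 still placed it among the most abundant rows. Its mean there was 72599 ± 4333 CPM (SD, n = 2), against 843558 ± 38009 CPM at stage 11.5 (SD, n = 2), so 8.61% of its gastrula share was left. It ranked 2 in library a and 3 in library b of stage 26, and 1 in both libraries of stage 11.5. miR-449, known from multiciliated cells, was the 1 row above it in both stage 26 libraries, with 384437 and 392449 CPM. The ratio of mean shares of miR-427 to miR-449 was 0.187 at stage 26 and 19.9 at stage 11.5.

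The rows next to miR-427 at stage 26 were close to it. miR-34b, of the same seed family as miR-449, had 67815 and 70968 CPM at stage 26, which overlaps the 75663 and 69535 CPM of miR-427, so the order of these 2 is not settled. miR-17-5p had 67559 and 61393 CPM there, below both values of miR-427. It overlapped miR-429, an epithelial miRNA, at 61482 and 64210 CPM. Of the 10 most abundant rows of stage 26, 9 had a larger share at stage 26 than at stage 11.5, from 3.71-fold for miR-17-5p to 280.0-fold for miR-34b, whose stage 11.5 value rests on 12 reads. miR-427 was the exception. These rows were picked by their stage 26 level and shares add to a fixed total, so larger shares were likely for the 9. In CPM 71.2% of tested rows rose. After scaling miR-17-5p, miR-18a and miR-200a did not pass (limma adjusted p = 0.725, 0.908 and 0.0696). The rest of the 9 passed as higher, where 38.5% of tested rows rose. Only 6 rows were among the 10 highest of both stages, miR-427 among them.

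**Figure D2:**
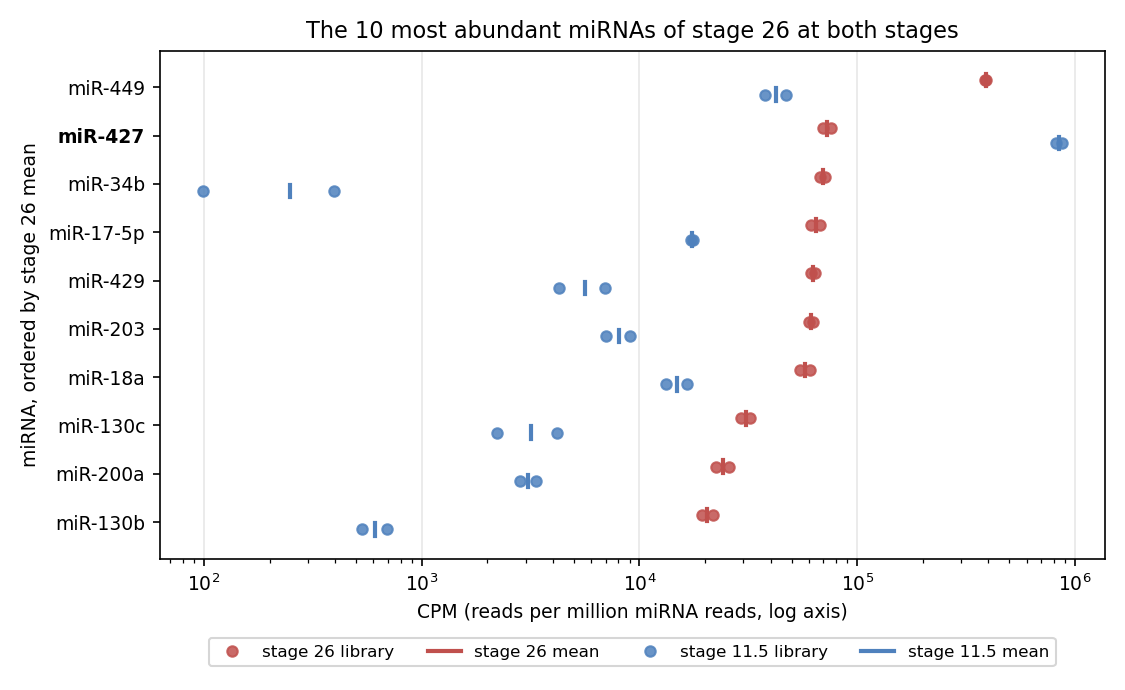
CPM (log axis) of the 10 most abundant miRNAs of stage 26, ordered by their stage 26 mean, at stage 26 (red) and stage 11.5 (blue). Points are libraries and ticks are means of 2 libraries. miR-427 is the 1 row whose stage 26 points lie left of its stage 11.5 points.

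Few rows lost share, and miR-427 accounts for nearly all of the loss. Since shares add to a fixed total, the fall of so dominant a row largely sets both results. Off that scale, 11 of 52 tested rows (21.2%) fell after TMM scaling. With the 4 rows left out of the totals, where shares again add to a fixed total, 14 of 52 fell (26.9%) and 14 rose (26.9%). In 12 of 98 rows (12.2%) both stage 26 libraries lay below both stage 11.5 libraries in CPM, and 2 of the 4 early embryonic miRNAs, miR-427 and miR-367, were among them. Summed over these 12 rows the mean share lost was 77.8 percentage points, and miR-427 made up 77.1 of them (99.0%). The share of miR-427 was 11.6 times lower, and some scarcer rows had larger folds or bounds, in an order that their few reads do not settle. miR-155, known from immune cells, had 1 read over both libraries of stage 26 and 94 over both of stage 11.5, a ratio of pooled shares of 157.2 with an exact 95% interval of 27.5 to 6275. let-7i, a let-7 row, had 0 reads at stage 26 and 1368 and 1579 CPM at stage 11.5. That is at least 43.6-fold lower against a floor of 3 reads over both stage 26 libraries. Without library a or b of stage 26 it is at least 20.6-fold and 23.0-fold. Such bounds take the stage 11.5 mean as measured, without its counting error. The other rows were miR-367, described below, and miR-125b, with 1 read over both libraries of stage 26 and 9 over both of stage 11.5 (ratio 15.1, interval 2.09 to 660).

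By fitted scaled fold change, the 3 tested rows most like miR-427 over the 4 libraries were let-7i, miR-155 and let-7b. Their fitted log2 fold changes were -5.89, -6.01 and -4.33, beside -5.52 for miR-427. With 0 reads of let-7i and 1 of miR-155 at stage 26, their fitted values are set by the 50 CPM added before taking logs, so nearness to miR-427 is not a measured likeness for either. let-7i, miR-155 and let-7b reached at most 2338 CPM in any library, far below miR-427. let-7b had 299 and 263 CPM at stage 26, and 2338 and 1546 CPM at stage 11.5.

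miR-428, which has the seed of miR-302 and miR-93a, did not follow miR-427. It held 239 and 188 reads at stage 26, which are 0.510% (exact 95% interval 0.447% to 0.578%) and 0.449% (0.387% to 0.518%) of reads. At stage 11.5 it held 39 and 69 reads, which are 0.172% (0.122% to 0.235%) and 0.227% (0.177% to 0.287%). As a share of all miRNA reads it was thus higher in both stage 26 libraries, 2.40-fold in the mean. Among reads other than miR-427 the order turned, with 0.551% and 0.482% at stage 26, against 1.33% and 1.24% at stage 11.5. Shares among these reads also add to a fixed total, so they too can fall because other rows rise. There were 43344 and 38966 such reads at stage 26, against 2937 and 5574 at stage 11.5.

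The direction for miR-428 therefore depends on the scale. Its log2 fold change was 1.25 in CPM (SE 0.412, limma adjusted p = 0.0306), -0.69 after TMM scaling (SE 0.356, limma adjusted p = 0.157) and -1.32 with the 4 rows left out of the totals (SE 0.33, limma adjusted p = 0.0294). In these fits 71.2% of tested rows rose in CPM and 26.9% fell without the 4 rows in the totals. The adjusted p ranged from 0.0294 to 0.387 over 16 alternatives, of which 3 passed. The 3 rows most like miR-428 in scaled log2 fold change were miR-375 (-0.66), miR-20b (-1.02) and miR-1b (-1.06), a muscle miRNA. Of these miR-1b passed (limma adjusted p = 0.0328), and miR-20b spread from 3838 to 22101 CPM between libraries of stage 11.5.

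miR-367 was not detected in the tailbud epidermis and was seen in the gastrula. It had 0 reads at stage 26, against 6 and 23 reads (265 and 756 CPM) at stage 11.5. The stages do not overlap. At stage 11.5 its shares were 0.0265% and 0.0756%. Their exact 95% intervals, 0.00971% to 0.0576% and 0.0480% to 0.113%, are wide and overlap. A count of 0 in 88770 reads of stage 26 allows a share of up to 0.00338%. Against the measured stage 11.5 means, the share of miR-367 was at least 15.1-fold lower and its scaled level at least 58.3-fold lower. Counting error of the stage 11.5 reads is left out of both bounds. These bounds move with single libraries: that for the share was 7.13-fold without library a and 7.98-fold without library b of stage 26, and 7.83-fold without library b of stage 11.5, and that for the scaled level 27.2-fold, 31.1-fold and 32.5-fold in the same order. It missed the filter of 277 CPM in 2 libraries and was not tested with the other rows. With no filter on low values its log2 fold change was -4.26 (SE 0.472, limma adjusted p = 0.00547), where 14 of 98 rows fell (14.3%). With 0 reads at stage 26, that size is set by the 50 CPM added before taking logs and is not a measured fold. In the filtered setting its untested difference was -6.49 with 10 CPM added and -2.47 with 200 CPM. The reads themselves give only the bounds above. The fits without a library of stage 26 kept a filter on reads, so they tested other rows than this fit. Without library a the log2 fold change of miR-367 was -3.93, without library b it was -3.94, and neither passed. With 0 reads at stage 26, miR-367 entered every alternative that kept a filter through its stage 11.5 reads alone. Whether it passed there is therefore no support for its fall.

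miR-302, well known from mammalian stem cells, was at the limit of detection at both stages. It had 0 reads in library a and 1 read in library b of stage 26, and 0 reads in both libraries of stage 11.5. The 53074 reads of stage 11.5 allow a share of up to 0.00565%, or 0.0352% of the 8511 reads that were not miR-427. No difference between stages was detectable at this depth. The frog epidermis thus had 29 reads of miR-367 at stage 11.5 with no read of miR-302, its cluster partner in mammals. Xenopus laevis reads were listed under Xenopus tropicalis names, with the mismatches allowed not given. Reads of 2 different miRNAs therefore need not rank their levels.

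Ratios within a library do not depend on scaling between libraries. The ratio of miR-427 to miR-428 was 14.8 and 15.5 at stage 26, against 506 and 360 at stage 11.5. Exact 95% intervals were 13.02 to 17.0 and 13.4 to 18.0 at stage 26, and 370.0 to 712 and 284 to 463 at stage 11.5. On the log2 scale the mean ratio was 3.92 ± 0.0433 at stage 26 and 8.74 ± 0.347 at stage 11.5 (SD, n = 2), a difference of -4.81 or 28.1-fold (exact permutation p = 0.33). The 2 members thus changed against each other by far more than libraries of a stage did. At stage 11.5 the ratio of miR-428 to miR-367 was 6.50 in library a and 3.0 in library b, with wide intervals of 2.73 to 18.8 and 1.85 to 5.04. At stage 26 it has no value, since miR-367 was at 0 beside 239 and 188 reads of miR-428.

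Set against every other tested row in this way, miR-427 fell almost throughout. Its ratio to 48 of 51 other tested rows was lower in both stage 26 libraries than in both stage 11.5 libraries, where 41.2% of all ordered pairs of tested rows behave so. The ratio was higher against let-7i and miR-155, and overlapped between stages against miR-126, a vessel miRNA. The median log2 change of the ratio was -5.96. miR-428 fell against 31 of 51 rows, rose against 10, miR-427 included, and overlapped with 10, with a median of -1.15. For these counts 0.5 read was added to every value, which sets the size of the ratios to let-7i.

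**Figure D3:**
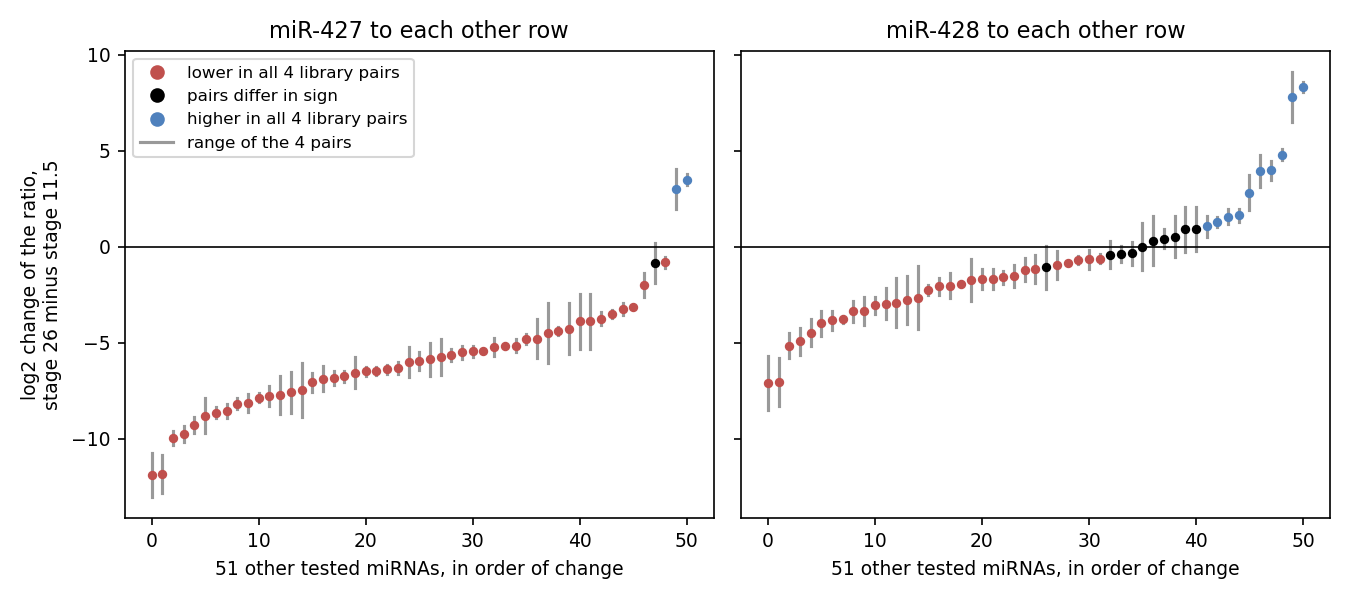
Log2 change of the ratio of miR-427 (left) and of miR-428 (right) to each of the 51 other tested miRNAs, stage 26 minus stage 11.5, in order of size. Points are means and bars the range of 4 pairs of libraries, in red where all 4 pairs are lower, blue where all are higher and black otherwise. miR-427 is lower against 48 rows and miR-428 against 31.

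Other rows held the seed of miR-427 to a larger part at stage 26. Rows with the seed AAAGTGC took 19.3% and 17.3% of reads at stage 26, against 89.6% and 86.4% at stage 11.5. Within them miR-427 made up 39.2% and 40.2% at stage 26, against 97.1% and 94.6% at stage 11.5. miR-17-5p came close to it at stage 26: the ratio of miR-427 to miR-17-5p was 1.12 and 1.13 at stage 26, against 49.5 and 47.6 at stage 11.5, a log2 difference of -5.43 (exact permutation p = 0.33). The intervals at stage 26, 1.07 to 1.18 and 1.07 to 1.19, lie just above equal reads. All 9 rows with the AAGTGC core took 20.6% ± 2.37 of reads at stage 26 and 89.8% ± 1.02 at stage 11.5 (SD, n = 2), a difference of -69.2 percentage points (exact permutation p = 0.33). That fall is one of miR-427: the other 8 rows took 13.3% ± 1.94 at stage 26 and 5.44% ± 2.78 at stage 11.5. Among reads other than miR-427 the order of these 8 turned, with 14.4% ± 2.15 at stage 26 and 33.6% ± 9.63 at stage 11.5.

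**Figure D4:**
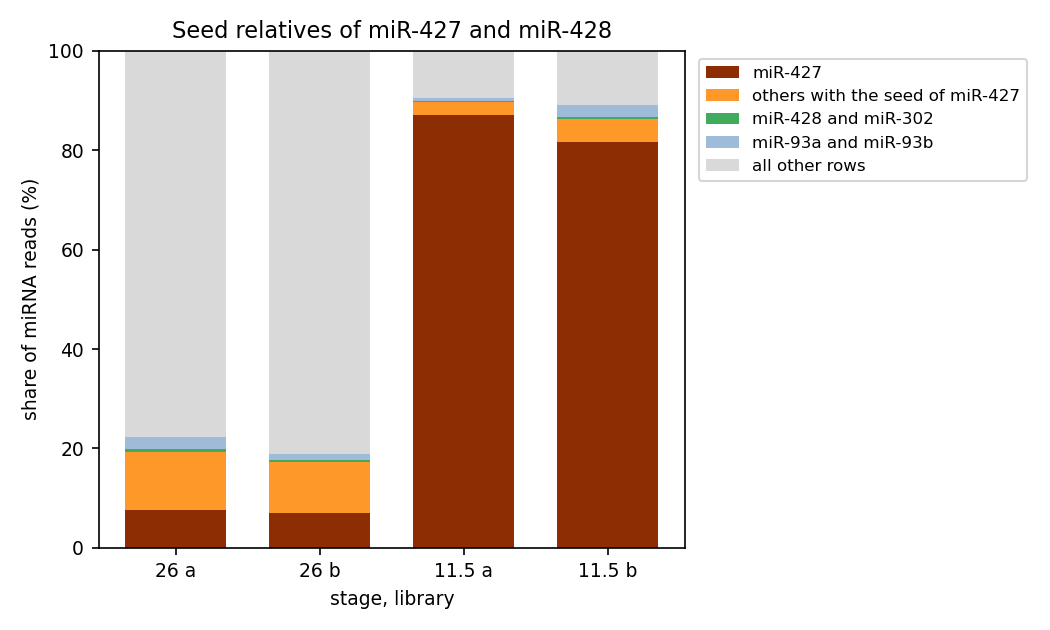
Share of miRNA reads (%) held by miR-427, by the other rows with its seed, by miR-428 and miR-302, by miR-93a and miR-93b, and by all other rows, at stage 26 and stage 11.5. miR-427 fills 81.7% to 87.0% of the stage 11.5 bars and 6.95% to 7.57% of the stage 26 bars, the other rows with its seed take larger shares in the stage 26 bars, and miR-428 with miR-302 is a thin band of at most 0.510%.

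After scaling none of the 6 relatives outside the 4 early embryonic miRNAs passed, where 38.5% of tested rows rose and 21.2% fell. Their median log2 fold change was -0.56 beside 0.47 over all tested rows. miR-93a, miR-93b and miR-20b had SEs of 0.740, 0.735 and 0.865, so not passing says little for them. The direction of the 6 relatives depended on the scale. In CPM 3 rose, where 71.2% of tested rows rose, and none fell (median 1.42, beside 2.27 over all). Those 3 were miR-17-5p, miR-20a and miR-106, of which the last 2 lie 2 edits apart. With the 4 rows left out of the totals 2 fell, where 26.9% of tested rows fell, and none rose (median -1.18, beside -0.14 over all). Those 2 were miR-93a and miR-93b, which are 1 edit apart. miR-17-5p had log2 fold changes of -0.09 after scaling (limma adjusted p = 0.725) and 1.89 in CPM (limma adjusted p = 0.000520). miR-20b, miR-93a and miR-93b differed between libraries of stage 11.5 by more than between stages. miR-93a, for instance, had 12092 and 5803 CPM at stage 26, against 3441 and 12465 CPM at stage 11.5. The ratio of miR-428 to miR-93a, which has its seed, accordingly overlapped between stages, at 0.422 and 0.774 at stage 26, against 0.5 and 0.182 at stage 11.5.

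miR-367 had no read in its own seed group at stage 26 and was the smaller part of it at stage 11.5. It held 0 of 425 reads with the seed ATTGCAC at stage 26, which allows up to 0.706%. At stage 11.5 it held 12.0% (exact 95% interval 4.53% to 24.3%) in library a and 13.1% (8.52% to 19.1%) in library b. The rest was miR-92a and miR-363-3p, members of the miR-17-92 and related clusters, and at stage 26 a few reads of miR-92b and miR-25. miR-363-3p, the row nearest to miR-367 in sequence, had 533 and 669 CPM at stage 26, against 706 and 756 CPM at stage 11.5. With scaling it fell (log2 fold change -2.10, SE 0.256, limma adjusted p = 0.00184), while in CPM it missed the threshold (-0.27, limma adjusted p = 0.375). miR-92a passed on neither scale, with -1.22 after scaling and 0.73 in CPM (limma adjusted p = 0.199 and 0.375), and with its stage 11.5 libraries at 1235 and 4243 CPM.

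**Figure D5:**
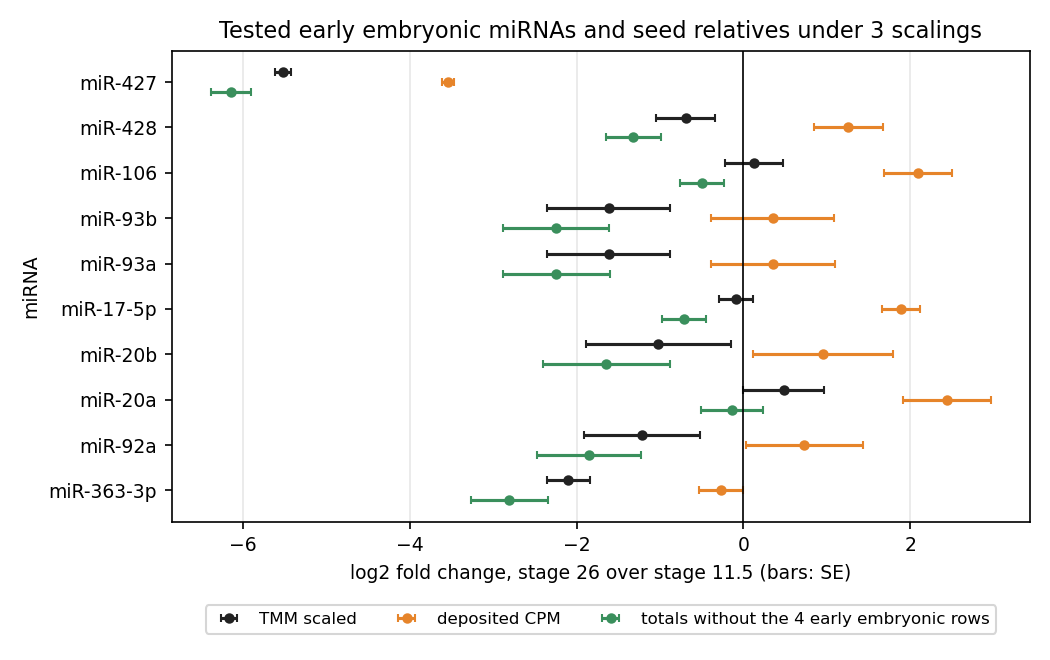
Log2 fold changes, stage 26 over stage 11.5, of the tested early embryonic miRNAs and their tested seed relatives, with SE bars, after TMM scaling (black), in deposited CPM (orange) and with the 4 early embryonic rows left out of the totals (green). miR-427 lies below 0 on all 3 scales, from -6.14 to -3.54, while miR-428 lies at 1.25 in CPM and at -0.69 and -1.32 on the other scales, and the relatives of the AAGTGC core shift likewise.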

How the data were processed

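Per the labels' protocols, Ambion's SREK procedure turned RNA of epidermal explants into small RNA libraries. Sequencer, aligner, allowed mismatches and the release of the miRNA database were not given in the sources used here, and genomic positions were not used. The authors deposited CPM values for 98 miRNAs, with every column summing to 1000000. Every value was a whole multiple (tolerance 1e-06) of the smallest nonzero value of its column, which was taken as 1 read. Depths, intervals, floors and TMM rest on that. Stages come from the developmental stage label, since the source name of library b reads slightly later at both stages.

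The test was limited to the 52 rows with at least 277 CPM (10 reads at the median depth) in 2 libraries and 15 reads in all. TMM factors (30% of M and 5% of A values trimmed) were computed from the reads of these rows. In R 4.3.3, limma 3.58.1 with a mean-variance trend was fitted to log2(scaled CPM + 50), which understates changes of low rows, with Benjamini-Hochberg adjustment over all tested rows and a threshold of 0.05. The fit was also run on simulated data in which most rows stayed unchanged, so that run does not test it where most rows change. Shares have exact (Clopper-Pearson) intervals at 95%, and floors are 3 reads. The planned count-based test was not run, since the deposited values are CPM. Alternatives covered scaling, filter, pseudocount, weights, rows, replicate block and each library left out.

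The 4 miRNAs and all lists were chosen with earlier results of these data known. Named rows are the 4 miRNAs, rows sharing their seeds or the AAGTGC core, the 10 highest rows of each stage, and the 3 tested rows nearest in fold change to each tested member. miR-126, miR-125b and the markers were named outside that rule.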

Additional observations from a re-analysis of the deposited data

How the results depend on the processing

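The fall of miR-427 passed in all 15 alternatives that tested it, with log2 fold changes from -5.61 to -5.36 as each library was left out in turn. miR-428 turned to 1.25 in the deposited CPM, and passed as lower with the 4 rows out of the totals (-1.32) and with miR-92a, miR-93a, miR-93b and miR-20b left out of the table (-0.85, chosen after seeing the data). The scale is what differs between the first 2 of these. For the others the cause was not tested. The untested log2 difference of miR-367, -4.24, was -3.33 in CPM, -5.91 with the 4 rows out of the totals, -6.49 and -2.47 with pseudocounts of 10 and 200 CPM, and -5.57 with miR-427 left out of the table (chosen after seeing the data). With each library left out it ran from -5.21 to -3.86. The number of miRNAs past the threshold, 31, became 48 of 98 with no filter, where more rows are tested, and ran from 11 to 41 as each library was left out, with 11 without library a and 12 without library b of stage 26, where the lone library is assumed to vary like those of the other stage. The log2 ratio of miR-427 to miR-428 kept its direction, from -5.06 to -4.57, and so did the summed shares as each library was left out.

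With the letter a or b as a replicate block, miR-427 stayed at -5.52 (limma adjusted p = 2.23e-17), miR-428 at -0.69 (limma adjusted p = 0.387), and 29 miRNAs passed. With so few libraries, p-values of a blocked fit rest mostly on a variance pooled across rows, so their size is not to be relied on. The a minus b differences of the stages correlated at r = -0.26 over 52 rows, and nothing states that letters pair libraries. With crossed letters, chosen after seeing the data, 36 passed. Voom weights, also added then, gave 33. The planned test on counts was not run. Depth limits miR-302, at 1 read in all, and the bound on miR-367, at 0 of 88770 reads at stage 26.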
